A study of Mus musculus with 4 samples.

Results

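The complement, coagulation and fibrinolysis genes described here are 39 symbols, taken by name from the 24421 gene symbols of a read count table. They were measured by bulk RNA sequencing in fibro-adipogenic progenitors (FAPs), the mesenchymal cells of the muscle interstitium that can give rise to fibroblasts and fat cells. All 4 libraries came from wild-type mice whose CSF1 receptor, on which resident macrophages depend, was inhibited for 3 weeks before the animals had a regular diet for 3 days. In each of 2 mice, live (PI-) CD31- CD45- Sca1+ cells were sorted into DPPIV- FAPs and DPPIV+ FAPs, where DPPIV is the surface peptidase encoded by Dpp4. The labels give no age for these animals and no untreated mouse was part of the design, so every difference given here is between the DPPIV+ and DPPIV- cells of treated muscle and none is an effect of the treatment. Each group held 2 libraries, 1 from each mouse.

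The libraries held 18240110 to 20879405 counted reads, at which 3 reads, the limit that a count of 0 allows, come to 0.144 to 0.164 CPM (a gene's reads per 1000000 reads of its library). Dpp4 itself was at 89.8 and 39.7 CPM in the DPPIV- libraries of mouse 1 and mouse 2 and at 728 and 575 CPM in the DPPIV+ libraries, the order that the sort labels give. The 6 FAP markers examined were present in every library, Pdgfra at 1159 to 1657 CPM and Ly6a, which encodes Sca1, at 962 to 1471 CPM. The markers of the cells sorted away were low but not absent, Ptprc (CD45) at 6.42 to 9.75 CPM and Pecam1 (CD31) at 11.2 to 20.4 CPM. In such bulk samples, fewer cells of a type and less RNA per cell cannot be told apart.

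Complement is a cascade of plasma and tissue proteins that tags surfaces for uptake, calls in leukocytes and can perforate membranes. The classical route begins with C1q and its proteases C1r and C1s, the lectin route with collectins and MASP proteases, and both cleave C4 and C2 to form an enzyme that splits C3, which the alternative route of factors B, D and properdin then amplifies. Coagulation starts when tissue factor (F3) meets plasma factor VII and ends with thrombin and fibrin, while thrombomodulin, the protein C receptor, protein S and the TFPI proteins hold it back. Fibrinolysis removes fibrin through plasmin, which the activators tPA (Plat) and uPA (Plau) generate. Much of the plasma supply of these proteins comes from the liver, and connective tissue cells make many of them locally.

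The promoters of 3 of these genes are shown because the genes mark the extremes of the comparison: C3 had the most reads, Procr had the largest rise, and F2r had the largest fall among members with a mean of 100 CPM or more in DPPIV- FAPs. Each runs 5′ to 3′ on the gene's own strand, from 250 bases before to 50 bases after the transcription start, and was read from RefSeq on GRCm38.p6. The 3 sequences lie at chr17:57228087-57228386 on the minus strand for C3, at chr2:155750967-155751266 on the plus strand for Procr and at chr13:95618417-95618716 on the minus strand for F2r.
C3: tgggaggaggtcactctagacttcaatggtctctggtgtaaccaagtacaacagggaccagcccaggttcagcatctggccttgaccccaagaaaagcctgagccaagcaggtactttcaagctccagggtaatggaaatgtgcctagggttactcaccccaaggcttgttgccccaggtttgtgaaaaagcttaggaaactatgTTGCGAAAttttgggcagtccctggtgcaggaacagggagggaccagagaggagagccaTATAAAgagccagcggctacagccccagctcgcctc
Procr: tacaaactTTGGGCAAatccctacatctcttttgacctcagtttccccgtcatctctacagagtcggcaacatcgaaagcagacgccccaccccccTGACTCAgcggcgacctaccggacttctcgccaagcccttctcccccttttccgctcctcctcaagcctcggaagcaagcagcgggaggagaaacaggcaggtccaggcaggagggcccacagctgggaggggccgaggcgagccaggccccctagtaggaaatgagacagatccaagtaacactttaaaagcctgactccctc
F2r: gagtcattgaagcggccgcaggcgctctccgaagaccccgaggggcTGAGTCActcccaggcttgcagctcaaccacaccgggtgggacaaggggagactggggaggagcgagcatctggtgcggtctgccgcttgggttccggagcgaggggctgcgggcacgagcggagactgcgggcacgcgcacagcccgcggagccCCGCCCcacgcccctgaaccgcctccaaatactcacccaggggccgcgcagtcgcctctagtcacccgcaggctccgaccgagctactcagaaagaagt
Capitals mark 4 motifs searched on both strands: TTGCNNAA, the core of C/EBP sites, TGANTCA, the AP-1 site, GGGCGG, the GC box, and TATAAA, the TATA box. C3 held TTGCNNAA at position -45 and TATAAA at position 14, Procr held TTGCNNAA at position -242 and TGANTCA at position -154, and F2r held TGANTCA at position -204 and GGGCGG at position -49, with positions counted from the start site. Of 32851 promoters of the same length, 10.8% held TTGCNNAA, 7.81% TGANTCA, 35.7% GGGCGG and 13.6% TATAAA, and of the 11393 promoters of tested genes 8.26%, 5.09%, 63.6% and 6.93% did. Of the 25 promoters of tested members, 4, 6, 12 and 6 held these motifs in the same order. The motifs were chosen after these sequences were seen, and a match describes letters and is not a binding site.

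The genes differed widely between the cell types, and complement and coagulation each held called genes of both directions. Of the 39 genes, 32 passed the filter of 2 CPM in at least 2 libraries, of which 9 were higher and 16 lower in DPPIV+ FAPs by edgeR's quasi-likelihood test at an adjusted p of 0.05 (Benjamini-Hochberg over all 11588 genes tested). Over all genes tested, 15.9% were called higher and 17.2% lower, 33.0% in all, while 78.1% of the members tested were called. The 39 genes were chosen with earlier results of these data known, so these shares describe the list and are not a test of it. DESeq2, a second count model, called 17 members (53.1%) where it called 16.6% of all genes. All 25 called members moved the same way in both mice, but they were called from these mice, so the agreement is not separate support. For C1qa the log2 ratio in mouse 2 was only -0.05. A set of 14 was called in every alternative that tested them, 6 higher (C3, C4b, Cd55, Thbd, Procr and Plat) and 8 lower (C2, C7, Clu, Masp1, F2r, F3, Gas6 and Colec12), though Masp1 was too low to be tested under the filter on 3 libraries. By role, 2 of the 8 tested genes of classical and lectin initiation were higher and 5 lower, and of the 3 genes of C3 and the alternative route 1 was higher and 1 lower. Of the 5 complement inhibitors 2 were higher and 2 lower, of the 3 procoagulant genes 2 were lower, of the 5 anticoagulant genes 2 were higher and 3 lower, and of the 4 genes of fibrinolysis 2 were higher and 1 lower. DESeq2 called neither Plau, the lower gene of fibrinolysis, nor Plaur, which was higher. C7 and Gas6 were lower, and neither anaphylatoxin receptor was called. The median size of the log2 fold change was 0.58 over the members tested and 0.16 over all genes tested. The members tested include 2, Masp1 and Cd59a, that passed the filter only through the DPPIV- libraries in which they were high.

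**Figure D1:**
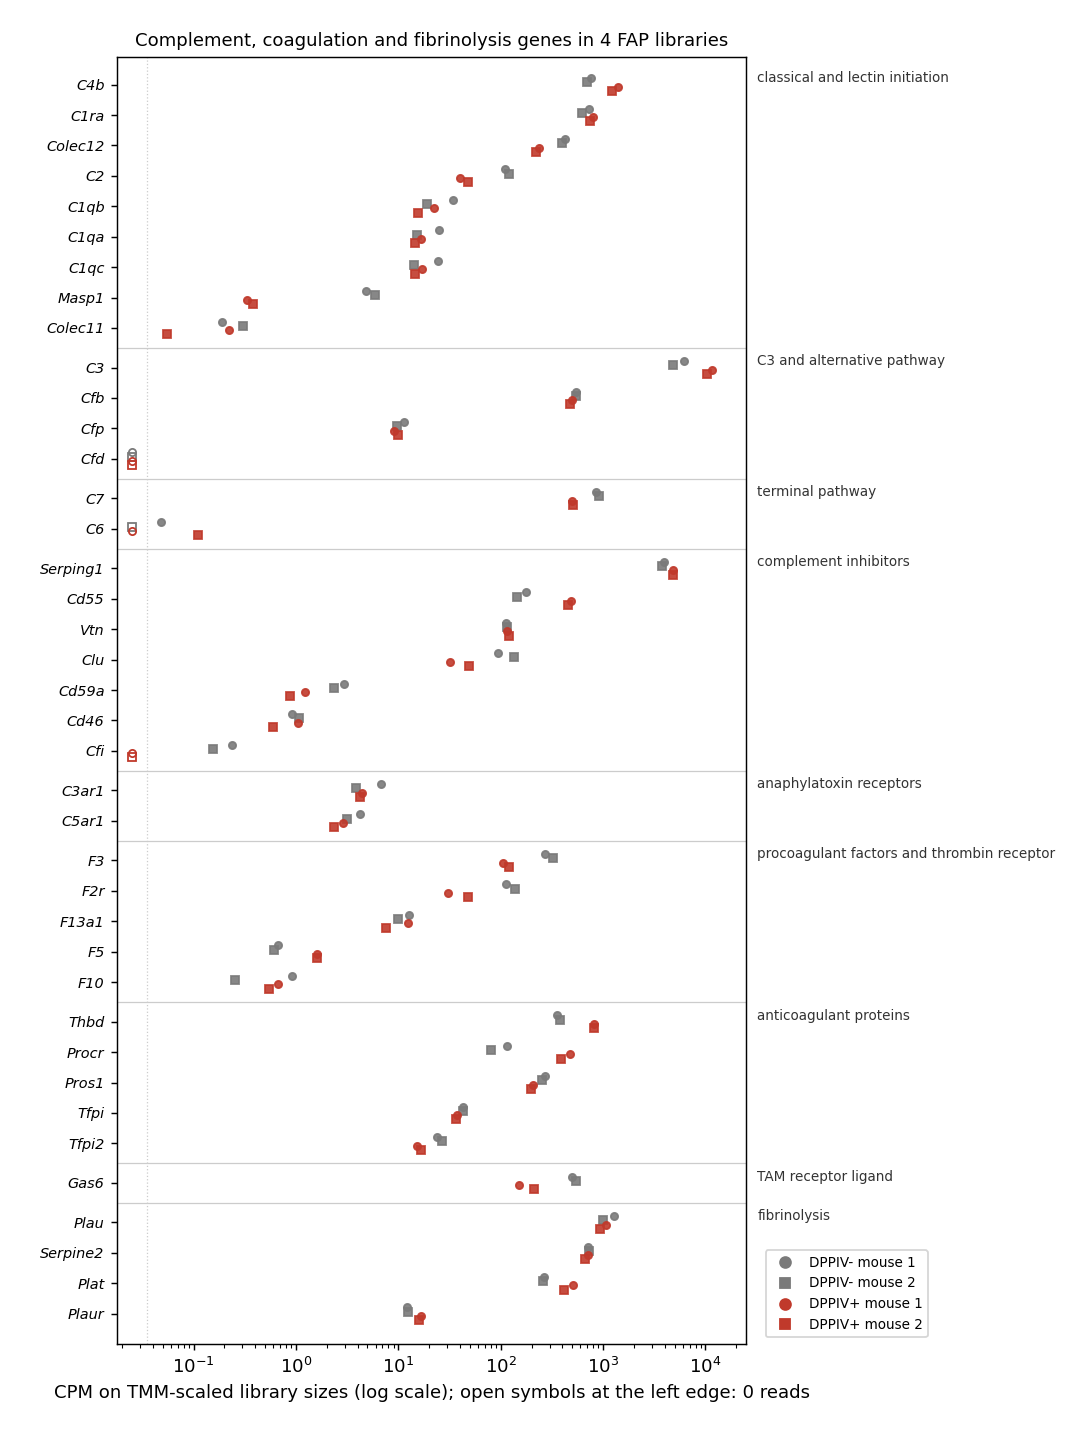
Level of each of the 39 genes in the 4 libraries, in CPM on a log axis, grouped by role, with grey symbols for DPPIV- and red for DPPIV+ FAPs, circles for mouse 1 and squares for mouse 2, and open symbols at the left edge for 0 reads. The levels run from 0 reads for Cfd to 11691 CPM for C3, and the red symbols of Procr, Cd55 and Thbd lie to the right of the grey ones while those of F3, F2r, Gas6 and Clu lie to the left.

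**Figure D2:**
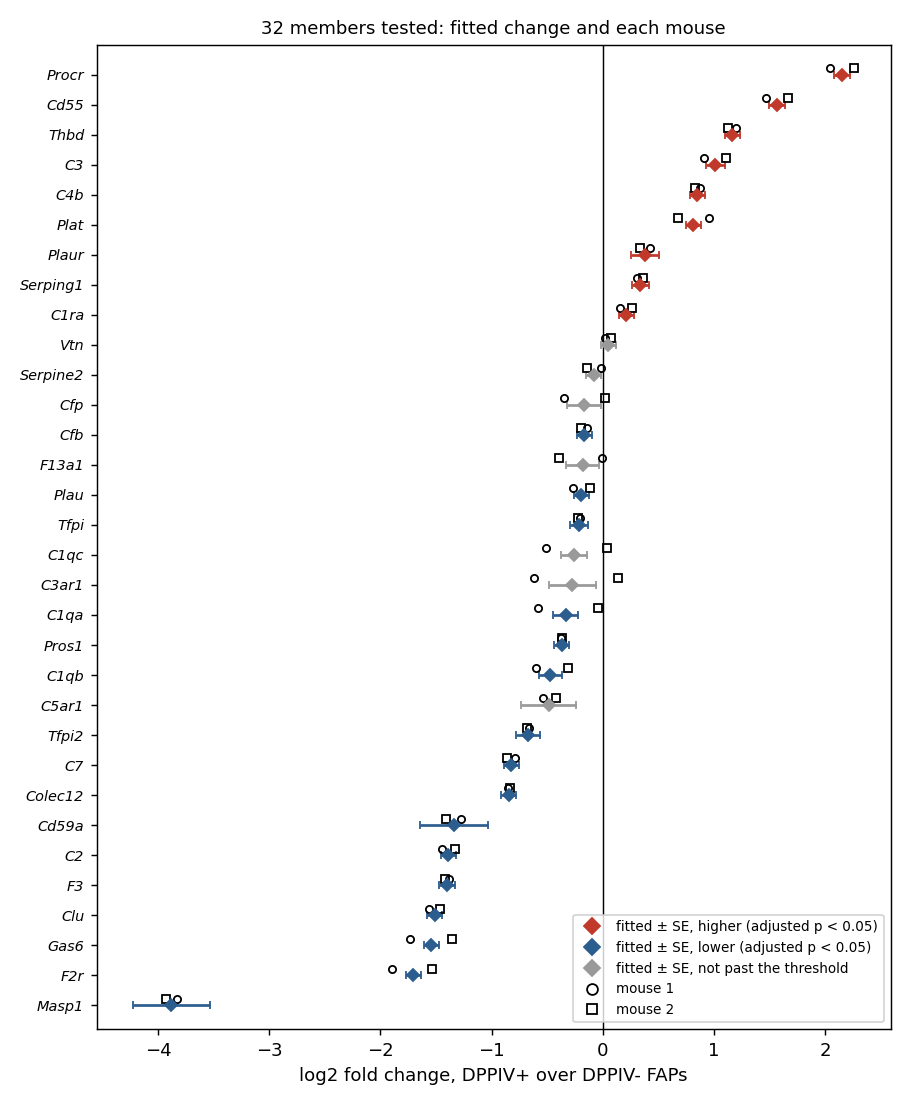
Log2 fold change of each of the 32 tested genes, DPPIV+ minus DPPIV- FAPs, with bars of 1 standard error of the edgeR fit and the log2 ratio of each mouse as a separate symbol. The values run from -3.88 for Masp1 to 2.15 for Procr, and the symbols of both mice lie on the same side of 0 for each of the 25 called genes.

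C3, the protein on which all routes of complement activation converge, was the member with the most reads. It measured 6211 and 4830 CPM in the DPPIV- libraries of mouse 1 and mouse 2 and 11691 and 10440 CPM in the DPPIV+ libraries. The groups did not overlap, and C3 transcripts made up 1.15% and 1.03% of all reads in DPPIV+ FAPs against 0.623% and 0.492% in DPPIV- FAPs. C3 rose 2.02-fold (log2 fold change 1.01, SE 0.08, edgeR adjusted p = 2.24e-32). C3 (ENSMUSG00000024164.15) lies at chr17:57203970-57228136 of GRCm38.

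C4b, the fourth component that the classical and lectin routes share, rose with C3, from 762 and 693 CPM to 1400 and 1228 CPM. That is a 1.80-fold rise (log2 fold change 0.85, SE 0.07, adjusted p = 2.66e-31). The ratio of C3 to C4b per kb of exon was 9.03 and 7.72 in DPPIV- and 9.25 and 9.42 in DPPIV+ FAPs, so the ratio changed far less than either gene did. C2, which supplies the protease of the C4b2a convertase, went the other way, from 109 and 120.5 CPM to 39.9 and 47.8 CPM (log2 fold change -1.39, SE 0.07, adjusted p = 6.50e-89). The ratio of C4b to C2 per kb was accordingly 4.75 and 3.91 in DPPIV- FAPs and 23.9 and 17.5 in DPPIV+ FAPs. Near-identical C4a, to which reads of C4b could be assigned, held only 10 to 18 reads in each library.

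Cfb, the factor B gene that adjoins C2 on chromosome 17, hardly moved, from 550 and 544 CPM to 498.5 and 476 CPM. Its log2 fold change of -0.17 (SE 0.07) passed in edgeR (adjusted p = 0.0457) and missed the threshold in DESeq2 (adjusted p = 0.26) and without the mouse block (adjusted p = 0.24). Exons of C2 and Cfb overlap those of a same-strand gene model, Gm20547, by 1656 and 2246 bases in GENCODE M21. Gm20547 is not among the symbols counted. How reads of the shared exons were treated depends on the counting annotation, whose release is not given in the sources used here. Properdin (Cfp), which stabilises the alternative convertase, measured 11.5 and 9.71 CPM and then 9.0 and 9.88 CPM, with overlapping groups and an adjusted p of 0.461. Cfd, factor D and a product of fat cells, had 0 reads in all 4 libraries. The fat cell genes Adipoq and Plin1, looked up after these values were seen, held at most 1 and 5 reads in any library.

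At the entry point of the classical route, the C1 proteases C1ra and C1s1 changed little. C1ra, a protease of the C1 complex, measured 723 and 620 CPM in DPPIV- and 806 and 746 CPM in DPPIV+ cells, and its log2 fold change of 0.21 (SE 0.07) passed in edgeR (adjusted p = 0.00927) but not in DESeq2 (0.0831) or without the mouse block (0.247). Its partner protease C1s1 was at 1671 and 1508 CPM and at 1723 and 1559 CPM (log2 fold change 0.05, SE 0.07, adjusted p = 0.701). The C1ra groups lay close without overlapping, and those of C1s1 overlapped.

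Masp1, whose products are proteases of the lectin route, was the member with the most negative log2 fold change. DPPIV- FAPs held 101 and 116 of its reads (4.83 and 5.93 CPM), and DPPIV+ FAPs held 6 and 7 (0.333 and 0.384 CPM). The fall was 14.7-fold (log2 fold change -3.88, SE 0.35, adjusted p = 8.38e-28), with log2 ratios of -3.83 in mouse 1 and -3.93 in mouse 2. Colec12, a membrane scavenger receptor with a collectin domain, fell 1.80-fold from 428.5 and 393 CPM to 237 and 220 CPM (log2 fold change -0.85, SE 0.07, adjusted p = 9.36e-34). Colec11, a soluble collectin, had 4 and 6 reads in DPPIV- and 4 and 1 reads in DPPIV+ FAPs, too few to test. Among genes outside the 39, Colec10, another soluble collectin, went the opposite way to Masp1, with 1 and 2 reads in DPPIV- and 41 and 43 reads in DPPIV+ FAPs (log2 fold change 4.85, SE 0.52, adjusted p = 2.79e-19), and passed the filter only where it was high.

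C7, a component of the membrane attack complex, fell from 854 and 922 CPM to 495 and 509 CPM, or 1.77-fold (log2 fold change -0.82, SE 0.07, adjusted p = 2.44e-30). C6, the component that precedes C7 in the assembly, had 1 and 0 reads in DPPIV- and 0 and 2 reads in DPPIV+ FAPs. The other genes of the terminal complex, Hc (C5), C8a, C8b, C8g and C9, were looked up in the same table, and none of them had more than 10 reads in any library.

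The complement inhibitors did not move together, on the membrane or in solution. Cd55, decay-accelerating factor, which takes C3 convertases apart on the cell's own membrane, stood at 177 and 144 CPM in DPPIV- and at 489 and 459 CPM in DPPIV+ FAPs. Its groups were far apart and it rose 2.96-fold (log2 fold change 1.57, SE 0.07, adjusted p = 1.51e-108). Cd55 (ENSMUSG00000026399.12) lies at chr1:130439027-130462744 of GRCm38, its near-identical neighbour Cd55b had 0 to 3 reads, and 102 bases of its exons overlap a gene model on the other strand. Cd59a, the membrane inhibitor of the attack complex, had 62 and 46 reads in DPPIV- and 22 and 16 reads in DPPIV+ cells, and its log2 fold change was -1.34 (SE 0.31) with an adjusted p of 7.88e-05 in edgeR and 0.132 in DESeq2. Its copy Cd59b held 1 to 9 reads. Cd46, the membrane cofactor protein, was below the filter with 19 and 21 and then 19 and 11 reads, and its exons overlap a gene on the other strand.

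Serping1, the C1 inhibitor, was abundant in both cell types and rose by a small amount. It measured 3920 and 3736 CPM in DPPIV- and 4859 and 4812 CPM in DPPIV+ cells (1.26-fold, log2 fold change 0.34, SE 0.08, adjusted p = 8.62e-05). The gap between the groups was larger than the spread between mice within each group. Clu, clusterin, which binds the soluble attack complex, fell 2.86-fold from 95.0 and 135 CPM to 32.1 and 48.8 CPM (log2 fold change -1.51, SE 0.07, adjusted p = 1.59e-102). Vtn, vitronectin, which shares that role, did not pass, at 113 and 115 CPM against 115 and 121 CPM (log2 fold change 0.05, SE 0.07, adjusted p = 0.63). Cfi, the protease that inactivates C3b and C4b, was seen in 5 and 3 reads of DPPIV- cells and 0 reads of DPPIV+ cells in either mouse, which was too low to test.

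Among complement genes outside the 39, Ptx3, a long pentraxin that binds C1q, rose from 48.7 and 42.3 CPM to 280 and 148 CPM (log2 fold change 2.18, SE 0.07, adjusted p = 8.56e-198), with an adjusted p of 0.0849 under robust moderation, where a gene that varies between mice keeps more of its own spread.

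The 3 chains of C1q, encoded side by side on chromosome 4, and the anaphylatoxin receptors are mostly products of macrophages. The C1q levels here ran with the summed level of the macrophage markers examined. C1qa was at 25.0 and 15.1 CPM in DPPIV- and 16.7 and 14.6 CPM in DPPIV+ FAPs, C1qb at 34.1 and 19.2 CPM and at 22.6 and 15.4 CPM, and C1qc at 24.3 and 14.4 CPM and at 17.1 and 14.7 CPM. In each of the 3 genes the DPPIV- library of mouse 1 stood above the other 3 libraries, and the DPPIV- library of mouse 2 lay within or close to the DPPIV+ range. By edgeR, C1qa (log2 fold change -0.33, SE 0.11, adjusted p = 0.0129) and C1qb (-0.47, SE 0.10, adjusted p = 2.09e-05) were called lower and C1qc (-0.26, SE 0.12, adjusted p = 0.0686) was not. DESeq2 called neither of the first pair (adjusted p = 0.494 for C1qa and 0.09 for C1qb), nor did the fit without the mouse block (0.364 and 0.307). Without the DPPIV- library of mouse 1, and with no mouse block, the log2 fold changes were 0.06 for C1qa, -0.01 for C1qb and 0.15 for C1qc.

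The 15 macrophage markers summed to 380 and 230.5 CPM in the DPPIV- libraries and to 248 and 214 CPM in the DPPIV+ libraries, and none of the 15 was at 0 in all libraries. By edgeR, 6 of the 10 tested were lower and none higher, but DESeq2 called none of these 6 (adjusted p from 0.182 to 0.667), nor did the fit without the mouse block (0.107 to 0.511). The C1q sum per marker sum was 0.220 and 0.211 in DPPIV- and 0.227 and 0.209 in DPPIV+ FAPs, so it differed little among the 4 libraries. Much of the marker sum was Lyz2 (220 and 125 CPM, then 131 and 121 CPM). Without Lyz2 the ratio was 0.520 and 0.460 in DPPIV- and 0.480 and 0.482 in DPPIV+ FAPs. Not all 15 markers ran alike. Lyve1 measured 2.92 and 4.29 CPM and then 3.94 and 1.26 CPM, and Mrc1 15.3 and 14.6 CPM and then 14.3 and 9.71 CPM. Relative to the DPPIV- library of mouse 1, Csf1r stood at 0.563, 0.663 and 0.563 in the DPPIV- library of mouse 2 and the DPPIV+ libraries of mouse 1 and mouse 2, and C1qa at 0.603, 0.669 and 0.584. The part of macrophage RNA in the C1q values was not tested beyond these ratios.

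C3ar1, the C3a receptor, was also highest in the DPPIV- library of mouse 1, with 6.83 and 3.83 CPM in DPPIV- and 4.44 and 4.22 CPM in DPPIV+ cells (log2 fold change -0.27, SE 0.21, adjusted p = 0.371). C5ar1, the C5a receptor, measured 4.21 and 3.17 CPM and then 2.89 and 2.36 CPM, with groups that did not overlap but a log2 fold change of -0.49 (SE 0.25) that missed the threshold (adjusted p = 0.125). F13a1, the transglutaminase that cross-links fibrin and a product of macrophages, measured 12.6 and 10.0 CPM and then 12.6 and 7.63 CPM (log2 fold change -0.18, SE 0.15, adjusted p = 0.395).

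**Figure D3:**
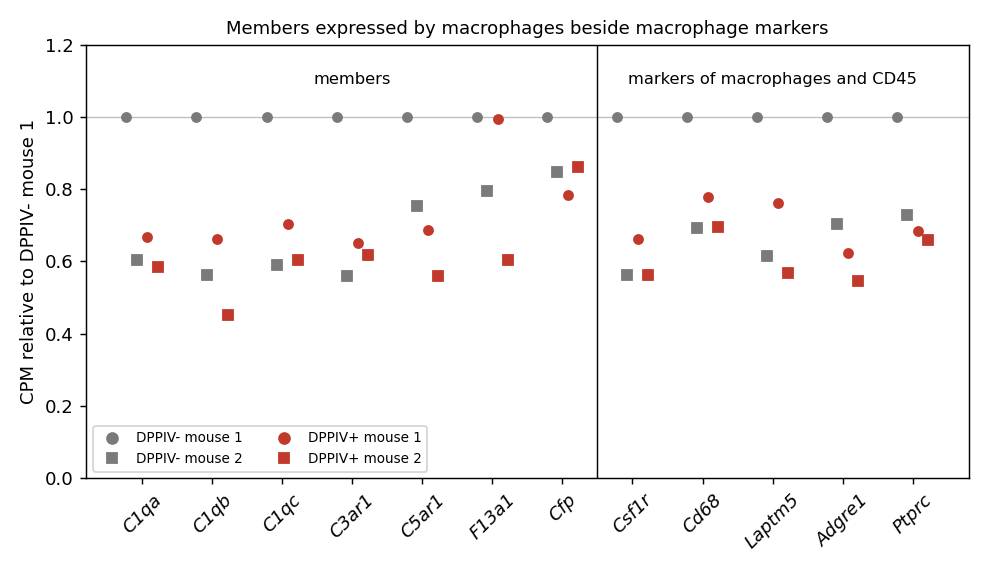
Level of the C1q chains and other members that macrophages express, in each library relative to the DPPIV- library of mouse 1 (CPM over CPM, linear axis). They stand beside the macrophage markers Csf1r, Cd68, Laptm5 and Adgre1 and beside Ptprc (CD45). C1qa stands at 0.603, 0.669 and 0.584 and Csf1r at 0.563, 0.663 and 0.563 in the other 3 libraries, in the order DPPIV- mouse 2, DPPIV+ mouse 1 and DPPIV+ mouse 2.

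On the coagulation side, the starter of the cascade and the thrombin receptor were lower in DPPIV+ FAPs and the receptors of the protein C pathway were higher. F3, tissue factor, stood at 274 and 326 CPM in DPPIV- and at 105 and 121.5 CPM in DPPIV+ FAPs. The groups did not overlap and the fall was 2.64-fold (log2 fold change -1.40, SE 0.07, adjusted p = 4.47e-89). F2r, the protease-activated receptor PAR1 through which thrombin signals to cells, fell 3.26-fold, from 112.5 and 139 CPM to 30.3 and 47.7 CPM (log2 fold change -1.71, SE 0.07, adjusted p = 1.37e-128). F2rl1, the related receptor PAR2, measured 31.6 and 57.5 CPM and then 16.8 and 35.7 CPM (log2 fold change -0.78, SE 0.09, adjusted p = 6.52e-19). It was lower in DPPIV+ FAPs within each mouse, while its groups overlapped across mice, and the adjusted p was 0.228 without the mouse block.

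Thbd, thrombomodulin, the receptor that turns thrombin towards protein C activation, stood at 354 and 376 CPM in DPPIV- and at 815 and 823 CPM in DPPIV+ FAPs. It rose 2.24-fold with little spread between mice (log2 fold change 1.17, SE 0.07, adjusted p = 7.01e-60). Procr, the endothelial protein C receptor that presents protein C to that complex, stood at 114.5 and 81.1 CPM and at 472 and 390 CPM. Its 4.44-fold rise (log2 fold change 2.15, SE 0.07, adjusted p = 1.03e-192) was the largest of the members, with log2 ratios of 2.04 in mouse 1 and 2.26 in mouse 2. Procr (ENSMUSG00000027611.12) and Thbd (ENSMUSG00000074743.4) lie on chromosome 2 of GRCm38, at chr2:155751117-155755471 and chr2:148404466-148408188.

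The ratio of Thbd to F3 per kb of exon was 0.879 and 0.784 in DPPIV- FAPs and 5.26 and 4.60 in DPPIV+ FAPs. That of Procr to F3 was 0.521 and 0.310 in DPPIV- FAPs and 5.59 and 3.99 in DPPIV+ FAPs, so in each mouse the anticoagulant receptors passed from below tissue factor to above it. Thbd and Procr are also well-known endothelial genes. Of 8 tested blood endothelial markers other than Tek, 6 were lower in DPPIV+ FAPs and none higher, with sums over the 9 listed of 98.5 and 55.8 CPM in DPPIV- and 54.7 and 44.7 CPM in DPPIV+ FAPs. Among those 6, DESeq2 called only Ptprb. Kdr was lower in mouse 1 alone, and Esam had log2 ratios of -1.80 in mouse 1 and -0.009 in mouse 2. The DPPIV- library of mouse 1 again had the highest sum. Tek, the tenth marker, went with Procr, from 187 and 149 CPM to 467 and 427 CPM. Mural cell markers were lower, as F3 and F2r were, with 5 of 6 called by edgeR. DESeq2 called 3 of these, Notch3, Kcnj8 and Cspg4. The mural sums were 121 and 123 CPM against 51.2 and 63.5 CPM, and much of them was Cspg4 (63.4 and 76.0 CPM, then 22.7 and 35.9 CPM). Rgs5 had a log2 fold change of -0.42 (DESeq2 adjusted p = 0.439), and that of Myh11, which was not called, was -0.28. The part of mural cells in the F3 and F2r results was not tested.

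The other anticoagulant genes were lower in DPPIV+ FAPs. Tfpi2, a Kunitz-type inhibitor of serine proteases such as plasmin, fell from 24.1 and 26.7 CPM to 15.3 and 16.6 CPM (log2 fold change -0.67, SE 0.11, adjusted p = 2.69e-09). Pros1, protein S, the cofactor of activated protein C, fell from 271 and 252.5 CPM to 209 and 196 CPM (log2 fold change -0.37, SE 0.07, adjusted p = 2.77e-07). Tfpi, the main inhibitor of the tissue factor complex, was at 43.2 and 42.8 CPM and then at 37.5 and 36.7 CPM, and its log2 fold change of -0.21 (SE 0.08) passed in edgeR (adjusted p = 0.025) but not in DESeq2 (0.512) or without the mouse block (0.127). Tfpi and its companions thus changed by less than Thbd or Procr did and in the other direction.

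The plasma factors themselves were scarce. F5, factor V, had 14 and 12 reads in DPPIV- and 29 and 29 reads in DPPIV+ FAPs, below the filter. When no filter was applied, its log2 fold change was 1.32 (SE 0.47, adjusted p = 0.0244). F10, factor X, had 19 and 5 reads in DPPIV- and 12 and 10 reads in DPPIV+ FAPs, with overlapping groups.

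Gas6, a vitamin K-dependent relative of protein S and the ligand of the TAM receptor kinases Tyro3, Axl and Mertk, stood at 498 and 543 CPM in DPPIV- FAPs. It stood at 150 and 212 CPM in DPPIV+ cells, a 2.91-fold fall (log2 fold change -1.54, SE 0.07, adjusted p = 2.42e-104), with log2 ratios of -1.73 in mouse 1 and -1.36 in mouse 2. Gas6 shares 34 exon bases with Tmem255b on the other strand, which had 14 to 147 reads. The receptor Axl rose while its ligand fell, from 1787 and 1658 CPM to 2875 and 2817 CPM (log2 fold change 0.73, SE 0.07, adjusted p = 5.86e-21). Tyro3 fell from 24.2 and 26.7 CPM to 17.2 and 16.6 CPM (log2 fold change -0.59, SE 0.11, adjusted p = 1.40e-07). Mertk fell from 9.18 and 9.66 CPM to 4.61 and 5.65 CPM (log2 fold change -0.88, SE 0.18, adjusted p = 7.29e-06). The ratio of Gas6 to Axl per kb of exon was 0.55 and 0.647 in DPPIV- and 0.103 and 0.149 in DPPIV+ FAPs.

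In fibrinolysis, the tissue-type activator rose and the urokinase side changed little. Plat, tPA, stood at 262 and 258 CPM in DPPIV- and at 507 and 412 CPM in DPPIV+ cells, a 1.76-fold rise (log2 fold change 0.82, SE 0.07, adjusted p = 2.81e-31). Plau, uPA, stood at 1280 and 1008 CPM and at 1060 and 933.5 CPM. Its groups overlapped across mice, and the log2 fold change of -0.19 (SE 0.07) passed in edgeR (adjusted p = 0.0234) but not in DESeq2 (0.152) or without the mouse block (0.388). Plaur, the uPA receptor, was at 12.3 and 12.5 CPM and then at 16.5 and 15.8 CPM (log2 fold change 0.38, SE 0.13, edgeR adjusted p = 0.0113, DESeq2 0.354, without the mouse block 0.0661).

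Serpine2, protease nexin-1, which inhibits thrombin and plasminogen activators, did not pass, at 720 and 736.5 CPM against 711 and 666 CPM (log2 fold change -0.08, SE 0.07, adjusted p = 0.416).

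**Figure D4:**
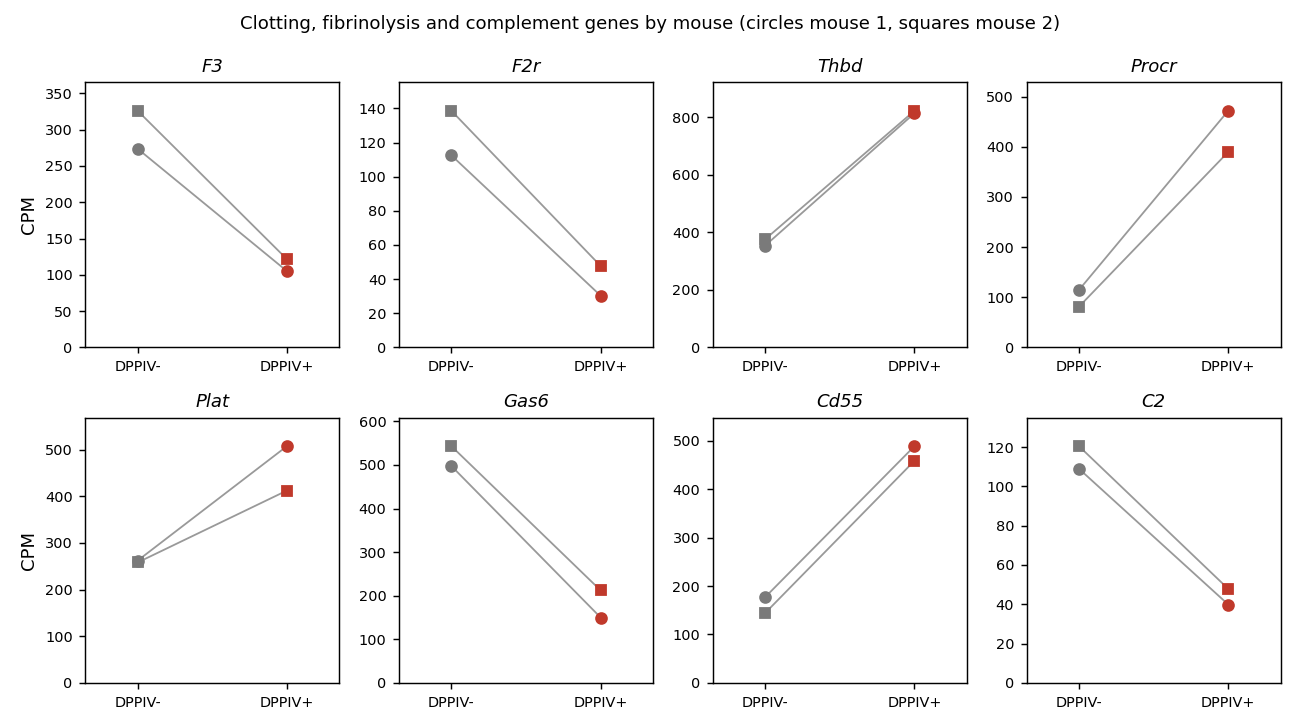
Level in CPM (linear axes from 0, one panel per gene) of F3, F2r, Thbd, Procr, Plat, Gas6, Cd55 and C2 in DPPIV- and DPPIV+ FAPs, with a line joining the libraries of each mouse, circles for mouse 1 and squares for mouse 2. In both mice F3, F2r, Gas6 and C2 fall from DPPIV- to DPPIV+ FAPs, F3 from 274 to 105 CPM in mouse 1 and from 326 to 121.5 CPM in mouse 2, and Thbd, Procr, Plat and Cd55 rise.

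Per kb of merged exon, the scale on which genes can be set beside each other, Serping1 led in DPPIV- FAPs with 1647 ± 55.9 CPM per kb (SD, n = 2), ahead of C3 with 1073 ± 190 and Plau with 483 ± 81.1. In DPPIV+ FAPs C3 with 2152 ± 172 and Serping1 with 2080 ± 14.3 CPM per kb did not differ beyond their spread, and on the length of the longest transcript Serping1 was first there too (2735 against 2155 CPM per kb). Plau, with 421 CPM per kb, was again the third. Procr moved from rank 14 to rank 7 and Cd55 from rank 19 to rank 10 of the 32 tested, while Gas6 moved from rank 6 to rank 13 and F3 from rank 9 to rank 16. C1ra, C4b, Thbd and Procr, which followed Plau in DPPIV+ FAPs, stood close together at 260, 231, 220 and 212 CPM per kb. Reads of all 39 genes made up 1.81% and 1.65% of the DPPIV- libraries and 2.46% and 2.27% of the DPPIV+ libraries, most of the gain being C3.

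The other genes of these pathways, a list of 86 in the table, were mostly too low to test, with 56 below the filter. Of the 30 tested, 5 were higher and 13 lower by edgeR, which called 33.0% of all genes tested. DESeq2 called 3 higher and 8 lower, and 16.6% of all genes. By pathway, 3 complement and 2 coagulation genes were higher, and 4 complement, 7 coagulation and 2 fibrinolysis genes were lower. Besides those named above, Csmd1, a large membrane regulator of complement, had a log2 fold change of -1.80 (SE 0.30, adjusted p = 2.31e-08), and Kng2, a kininogen, one of -1.43 (SE 0.26, adjusted p = 3.67e-07). Csmd1 (2.77 and 4.09 CPM, then 0.667 and 1.32 CPM) and Kng2 (4.35 and 4.65 CPM, then 1.33 and 2.03 CPM) passed the filter only through the DPPIV- libraries in which they were high. Vwf, von Willebrand factor and an endothelial product, measured 11.3 and 5.42 CPM and then 4.39 and 4.28 CPM (log2 fold change -0.90, SE 0.20, edgeR adjusted p = 2.43e-05, DESeq2 0.0928), with the DPPIV- library of mouse 1 again above the other 3. Gp1bb, a subunit of the platelet receptor for von Willebrand factor, had a log2 fold change of 0.66 (SE 0.25, edgeR adjusted p = 0.0318, DESeq2 0.541).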

How the data were processed

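RNA of DPPIV- and DPPIV+ FAPs, sorted from each of 2 mice, was sequenced in 4 libraries. The labels name the tibialis anterior as source and both hindlimbs in the protocol, and the library kit differs between the labels and the paper's methods. Base calls were demultiplexed by the authors with bcl2fastq 2.20, and they aligned the read pairs to mm10 with STAR and deposited raw counts per gene symbol, made with RnaReadCounter. Their processing notes also list Bowtie. The annotation release and strand setting of the counting are not given in the sources used here. The table held 24421 symbols, 7548 of them at 0 in all libraries, and no column was left out.

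A gene entered the test (11588 did) when 2 or more libraries reached 2 CPM. Counts were fitted in edgeR 4.0.16 under R 4.3.3 with TMM factors, mouse and cell type as terms and the quasi-likelihood F test, two-sided, adjusted by Benjamini-Hochberg over all genes tested. The prior degrees of freedom were infinite, which means that the spread came from the abundance trend for each gene, and abundant genes have very small p-values. Standard errors are the log2 fold change over the square root of F. CPM values are on TMM-scaled library sizes, and ratios per mouse used a prior count of 0.125. The 2 mice are the replicates, with 1 residual degree of freedom. Standard errors and p-values of the edgeR test thus rest on the spread shared by genes of like abundance in these 4 libraries. They do not measure a gene's own spread between mice. Mouse was a block because the titles give each animal's number to 1 library of each cell type. The differences between mice in the 2 cell types correlated at 0.415 across genes, which are not independent replicates.

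The alternatives were the Wald test of DESeq2 1.42.0, dropping the mouse block, scaling by RLE or upper quartiles, no filter, a filter on 3 libraries, the likelihood ratio test, robust moderation, a threshold of 1.5-fold, a threshold of 0.01 on the adjusted p, and leaving out each library or each mouse. Gene coordinates and exon lengths came from GENCODE M21 on GRCm38 and promoters from RefSeq, in which 27 of the 39 genes had an entry. The fits were tested on simulated counts. Where the simulated spread varied between genes, edgeR called 183 of 200 changed genes and 48 unchanged ones, and DESeq2 called 162 and 4. With the spread on the abundance trend, edgeR called 194 and 11 and DESeq2 163 and 0. The share of false calls exceeded the threshold in edgeR, by far the most where the spread varied, and did not in DESeq2. The 39 genes, the list of other pathway genes and the marker lists were chosen with earlier results of these data known. Named were all 39 genes, the 12 other pathway genes with the largest log2 fold change among those called in the same direction in both mice, and the partners C1s1, Axl and Mertk, except that some of the other pathway genes, which stay in the counts, are not reported here.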

Additional observations from a re-analysis of the deposited data

How the results depend on the processing

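All 39 genes were read at 2 mice and 1 residual degree of freedom, and the calls on small changes rest on the shared abundance trend and on the mouse block. DESeq2 called 10 members lower rather than 16, 3 and 8 other pathway genes higher and lower rather than 5 and 13, and 923 and 995 of all genes rather than 1837 and 1989. Without the replicate block, where the pairing of mice is not used, the counts were 7 and 11 members, 3 and 8 other pathway genes, and 1001 and 1119 of all genes. Against a 1.5-fold change they were 6 and 9, 2 and 5, and 436 and 656, and at an adjusted p under 0.01 3 other pathway genes were higher. With upper-quartile factors 1489 genes were higher and 2295 lower, at a median log2 fold change over all genes of -0.05. The block changed no call of a member other than those of C1qa, C1qb, C1ra, Cfb, Tfpi, Plau and Plaur given above.

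Leaving out 1 library at a time, with no block, gave 6 to 7 members higher and 9 to 15 lower, 3 and 3 to 10 other pathway genes, and 632 to 1049 and 732 to 1121 of all genes. The log2 fold changes over these fits and over single mice ran from -0.67 to 0.056 for C1qa, -0.61 to 0.15 for C1qc, -0.66 to 0.18 for C3ar1, -0.57 to 0.15 for F13a1 and -0.028 to 0.12 for C1s1, with C1qa, C1qc, C3ar1 and F13a1 above 0 without the DPPIV- library of mouse 1, F13a1 also without the DPPIV+ library of mouse 2, and C1s1 below 0 without the DPPIV- library of mouse 2 or the DPPIV+ library of mouse 1. C1qc was called lower without the DPPIV- library of mouse 2 (adjusted p = 0.00999). Serping1 lost its call without the DPPIV- library of mouse 2 (adjusted p = 0.101) or either DPPIV+ library (0.239 and 0.219). Pros1 and Cd59a lost theirs without the DPPIV- library of mouse 1 (0.0538 and 0.0783) or the DPPIV+ library of mouse 1 (0.0808 and 0.0592) or mouse 2 (0.173 and 0.142). Without the DPPIV+ library of mouse 1, Csmd1, Kng2 and Mertk lost theirs (0.0892, 0.0638 and 0.0756), and Vwf lost its call without the DPPIV- library of mouse 1 (log2 fold change -0.32, adjusted p = 0.563) or either DPPIV+ library (0.246 and 0.281). F2rl1 lost its call without the DPPIV- library of mouse 2 (log2 fold change -0.27) or the DPPIV+ library of mouse 1 (-0.32). Gp1bb lost its call whichever library was left out (log2 fold change 0.40 to 0.89). With 1 library left in a cell type, that library is assumed to vary like the others.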

Other observations

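Gas6, Pros1 and F10 need vitamin K-dependent carboxylation to work, and the genes of that machinery, looked at after their values were seen, changed little. Ggcx, the carboxylase, measured 88.6 and 96.7 CPM in DPPIV- and 74.8 and 77.2 CPM in DPPIV+ cells (log2 fold change -0.28, SE 0.07, edgeR adjusted p = 8.39e-05, DESeq2 0.0968). Vkorc1, the reductase that recycles vitamin K, measured 108 and 99.5 CPM and then 93.9 and 98.8 CPM, and was not called. Mcfd2, which helps carry factor V and factor VIII out of the endoplasmic reticulum, fell from 111 and 116 CPM to 89.6 and 100.2 CPM (log2 fold change -0.26, SE 0.07, edgeR adjusted p = 4.14e-04, DESeq2 0.12). Anxa2 and S100a10, which together bind plasminogen and tPA at the cell surface, measured 842 and 972 CPM and 418 and 433 CPM in DPPIV- FAPs, and 878 and 1019 CPM and 429 and 477 CPM in DPPIV+ FAPs, and neither was called. Mrc2, the collagen receptor that associates with the uPA receptor, fell from 790 and 810 CPM to 572 and 585 CPM (log2 fold change -0.47, SE 0.07, edgeR adjusted p = 1.92e-10), in both mice by nearly the same ratio (-0.47 and -0.47).

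The tenocyte markers Tnmd, Scx and Mkx were all higher in DPPIV+ FAPs, with sums of 29.0 and 35.3 CPM against 60.1 and 105 CPM. None of the satellite cell, neutrophil or mesothelium markers reached the filter, and none of the 4 tested myofibre markers was called. Of the lymphatic markers 1 of 2 tested was higher, Pdpn at 230 to 305 CPM, while Flt4 was not called. Prox1 and Ccl21a were below the filter. Of the glial markers 1 of 3 was lower, and of the platelet markers 1 of 2 was lower.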
